A study of Mus musculus with 9 samples.

Results

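The 9 genes described here mark B lymphocytes: Ms4a1, Cd79a, Cd79b, Cd22, Cr2, Pax5, Bank1, Cxcr5 and Fcmr. They are a list of names, drawn up with earlier results of these data known, and each has 1 row among the 53379 genes of the deposited table, of which 29770 had a count in at least 1 library. Total RNA of mouse seminal vesicle, an accessory gland of the male reproductive tract, was sequenced at 3, 13 and 21 months of age, with 3 libraries at each age. The labels give the tissue and the age and name no strain, genotype or treatment. They do not say whether replicates are separate animals, so that p-values measure the spread between these libraries, which may be technical.

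A B cell recognises antigen with a membrane immunoglobulin that signals through the paired chains CD79A and CD79B. Coreceptors raise or lower that signal, the transcription factor PAX5 holds the lineage identity, and the chemokine receptor CXCR5 guides the cell along CXCL13 into follicles of lymphoid tissue. When a B cell becomes a plasma cell it gives up PAX5 and most of its surface receptors and makes large amounts of immunoglobulin RNA. In bulk RNA, more cells of a type and more RNA per cell cannot be told apart.

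Total counts per library lay between 16536160 and 24791943, and 3 counts, the floor used here, equal 0.121 to 0.181 counts per 1000000 of the library total (CPM). The tissue label could be checked with 10 genes of seminal vesicle epithelium, which together took 561109 to 619513 CPM in the 6 libraries of 3 and 13 months and 220551, 441401 and 557717 CPM in 21-month replicates 1, 2 and 3. The first and second 21-month libraries stood apart from the other 7. Prostate epithelium markers without Spink1, which every library held, summed to 24832 CPM in 21-month replicate 1 and to 0.050 to 0.686 CPM in each other library, with Tgm4 at 17560 and Pbsn at 6317 CPM in the first. Adipocyte markers summed to 335 CPM in 21-month replicate 1, 2273 in replicate 2 and 14.4 in replicate 3, against 11.2 to 29.1 CPM in the younger libraries, and in the same order Fabp4 had 78.2, 779 and 1.07 CPM and Adipoq 22.8, 166 and 0. In 21-month replicate 3, Tgm4, Pbsn, Msmb, Sbp and Hoxb13 had no count. What these transcripts contribute to the results on B cell genes was not tested, and comparisons with 21 months are also given without those libraries.

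All 9 genes were found in every 21-month library, and their level differed widely between those 3 libraries. Summed over the 9 genes, the level was 2.92, 2.18 and 1.33 CPM in 3-month replicates 1, 2 and 3. It was 1.49, 2.06 and 0.807 CPM at 13 months and 48.8, 12.2 and 3.55 CPM at 21 months. The 21-month libraries lay above all 6 younger ones, the third by a small margin. Cr2 alone gave 46 of the 59, 24 of the 36 and 11 of the 22 counts of the 3-month libraries. Without Cr2 the other 8 genes summed to 0.644, 0.726 and 0.662 CPM in the 3-month libraries, 1.20, 1.54 and 0.444 in the 13-month libraries, and 35.1, 10.8 and 2.75 in the 21-month libraries.

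**Figure D1:**
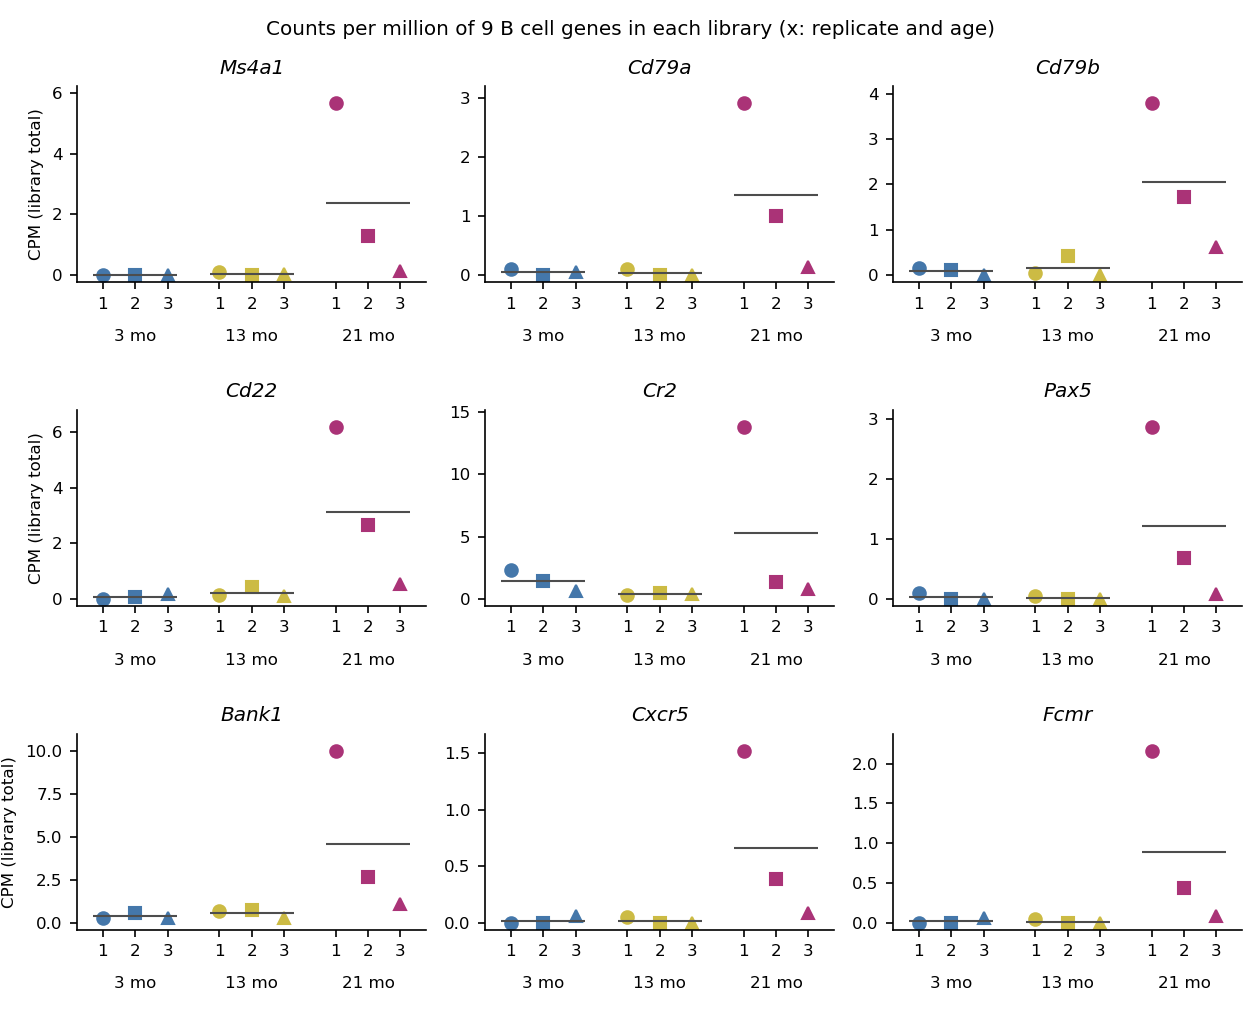
Level of each B cell gene in each of the 9 libraries, in CPM by library total on a linear axis that differs between panels, with the replicate number and age on the x axis and the mean of each age as a line. At 21 months replicate 1 was highest and replicate 3 lowest for every gene, and Cr2 is the gene with a clear level at 3 months.

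Cd79a and Cd79b encode the chains that carry the signal of the B cell receptor. Cd79a (ENSMUSG00000003379, GRCm38 chromosome 7, 24897381 to 24902197) had 2, 0 and 1 counts in the 3-month libraries, 2, 0 and 0 in the 13-month and 50, 21 and 3 in the 21-month libraries, the last equal to 2.92, 1.01 and 0.133 CPM. Cd79b (ENSMUSG00000040592, chromosome 11, 106311341 to 106314762) had 3, 2 and 0 counts in the 3-month libraries, 1, 8 and 0 in the 13-month and 65, 36 and 14 in the 21-month libraries, the last equal to 3.79, 1.73 and 0.622 CPM. In both genes every 21-month library was above every younger library in CPM, and the third 21-month library held 3 counts of Cd79a, no more than the floor. The mean level of Cd79b was 0.0899 ± 0.0791 CPM at 3 months, 0.153 ± 0.225 at 13 months and 2.05 ± 1.61 at 21 months (SD, n = 3).

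Cd22 and Cr2 encode coreceptors that act in opposite ways on the receptor's signal. CD22 is a lectin that binds sialic acid and dampens signalling. Cd22 (ENSMUSG00000030577, chromosome 7, 30865402 to 30880342) had 0, 1 and 3 counts in the 3-month libraries, 3, 8 and 3 in the 13-month and 106, 55 and 12 in the 21-month libraries. The 21-month values were 6.19, 2.64 and 0.533 CPM, all above the highest younger library at 0.412 CPM. CR2, or CD21, binds complement fragments on antigen and raises signalling, and it is also made by follicular dendritic cells. Cr2 (ENSMUSG00000026616, chromosome 1, 195136811 to 195176716) had 46, 24 and 11 counts in the 3-month libraries, 6, 10 and 9 in the 13-month and 236, 28 and 18 in the 21-month libraries. In CPM these were 2.28, 1.45 and 0.662, then 0.289, 0.515 and 0.363, then 13.8, 1.35 and 0.799. The 13-month libraries were the lowest, and 21-month replicates 2 and 3 lay inside the range of the 3-month libraries.

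Ms4a1 encodes CD20, a membrane protein used to recognise B cells. Ms4a1 (ENSMUSG00000024673, chromosome 19, 11249675 to 11266241) had no count in the 3-month libraries, 2, 0 and 1 counts in the 13-month and 97, 27 and 3 in the 21-month libraries. The 21-month values were 5.66, 1.30 and 0.133 CPM. All were above the younger libraries, the third by 1 count over the highest of them.

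Pax5 and Bank1 act inside the cell. Pax5 (ENSMUSG00000014030, chromosome 4, 44524757 to 44710487), the transcription factor of B lineage identity, had 2, 0 and 0 counts in the 3-month libraries, 1, 0 and 0 in the 13-month and 49, 14 and 2 in the 21-month libraries. The last were 2.86, 0.673 and 0.0888 CPM, and the third lay below the 0.0991 CPM of 3-month replicate 1. Bank1 (ENSMUSG00000037922, chromosome 3, 136053363 to 136326066) encodes a scaffold that joins the receptor to calcium release. Its counts were 6, 9 and 5 in the 3-month libraries, 14, 14 and 7 in the 13-month and 171, 55 and 24 in the 21-month libraries. In CPM they were 0.297, 0.544 and 0.301, then 0.674, 0.721 and 0.282, then 9.98, 2.64 and 1.07, so that every 21-month library was above every younger one and the ages of 3 and 13 months overlapped.

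Cxcr5 and Fcmr encode receptors for ligands outside the cell, the chemokine CXCL13 and IgM. Cxcr5 (ENSMUSG00000047880, chromosome 9, 44511787 to 44561877) had 0, 0 and 1 counts in the 3-month libraries, 1, 0 and 0 in the 13-month and 26, 8 and 2 in the 21-month libraries, the last equal to 1.52, 0.384 and 0.0888 CPM. Fcmr (ENSMUSG00000042474, chromosome 1, 130865669 to 130880791) had 0, 0 and 1 counts in the 3-month libraries, 1, 0 and 0 in the 13-month and 37, 9 and 2 in the 21-month libraries, the last equal to 2.16, 0.433 and 0.0888 CPM. In both genes the third 21-month library held 2 counts, which is under the floor of 3 and 1 count above the highest younger library.

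Per kilobase of exon, the mean levels of the 9 genes at 21 months ran from those of the receptor chains down to that of Pax5. The mean level there was highest for Cd79b, at 1.43 ± 1.13 CPM per kilobase (SD, n = 3). Cd79a followed at 0.929, Cr2 at 0.654, Cd22 at 0.619, Bank1 at 0.610, Fcmr at 0.515, Ms4a1 at 0.382, Cxcr5 at 0.199 and Pax5 at 0.136 CPM per kilobase. The spread between libraries was about as large as each mean, and it is shared by the genes, which were measured in the same libraries. Within libraries, Cd79b was above Cd79a in all 3, at 1.21 against 0.693 CPM per kilobase in replicate 2 and 0.434 against 0.0914 in replicate 3. At 3 months Cr2 led with 0.181 ± 0.0997 CPM per kilobase, and at 13 months Cd79b with 0.107 ± 0.157.

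RefSeq promoters of GRCm38.p6, from 250 bases before to 50 after the annotated start, matched 6 of the 9 genes: Bank1, Cd22, Cd79a, Cr2, Fcmr and Pax5. Both strands of these were searched for short words bound by B lineage factors. The octamer ATGCAAAT, which lies in 1.75% of all 32544 promoters, and the PU.1 word GAGGAAGT, in 3.11%, were in 0 of 6. The EBF word, TCCC and GGGA with any 2 bases between, in 0.913% of all promoters, was in the Cd22 promoter, 49 bases before the start. The ETS word AGGAAGTG, in 4.0% of all promoters, was in the Cd79a promoter, 55 bases before the start. It was added after the sequences had been read, and it shares the letters AGGAAGT with the PU.1 word. Both promoters are shown 5′ to 3′ because they held the matches, with the matched word in capitals, for Cd79a at chr7:24897247-24897546 on the plus strand and for Cd22 at chr7:30878979-30879278 on the minus strand. A match describes letters and is not a measured binding site.
Cd79a: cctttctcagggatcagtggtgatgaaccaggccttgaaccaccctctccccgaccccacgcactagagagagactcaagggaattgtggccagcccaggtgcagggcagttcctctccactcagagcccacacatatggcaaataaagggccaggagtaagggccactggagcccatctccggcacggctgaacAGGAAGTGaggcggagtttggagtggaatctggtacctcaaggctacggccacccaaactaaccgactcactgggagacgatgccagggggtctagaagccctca
Cd22: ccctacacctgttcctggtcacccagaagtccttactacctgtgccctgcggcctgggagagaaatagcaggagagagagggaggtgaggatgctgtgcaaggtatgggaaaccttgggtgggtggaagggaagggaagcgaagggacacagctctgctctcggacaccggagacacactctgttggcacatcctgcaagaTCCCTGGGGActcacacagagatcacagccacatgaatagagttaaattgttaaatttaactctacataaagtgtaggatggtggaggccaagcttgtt

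Between 3 and 13 months no B cell gene was called. Of the 9 genes, 4 had enough counts to be tested, Cd79b, Cd22, Cr2 and Bank1. None of the 4 was called higher or lower by edgeR's quasi-likelihood test at an adjusted p under 0.05, where 0.0436% of all 16067 tested genes were called higher and 0.454% in either direction. At an unadjusted p under 0.05 the count was 0, and DESeq2 and limma-voom called 0 of the 4. Cr2 had a log2 fold change of -1.99 ± 0.99 (SE, edgeR adjusted p = 0.741). It was the 1 gene of the 9 whose 13-month libraries all lay below the 3-month libraries in CPM, against 4.47% of genes with a count, and 0 of the 9 lay wholly above, against 6.35%. The log2 fold change was 1.39 ± 1.25 for Cd22, 0.50 ± 1.31 for Cd79b and 0.48 ± 0.79 for Bank1, with edgeR adjusted p between 0.883 and 0.964.

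Cd22 alone was called between 3 and 21 months, close to the threshold, and the values of the other tested genes were positive without passing the test. Of the 4 tested genes, 1 was called higher by edgeR, against 1.26% of all tested genes. Cd22 went from 0.0804 ± 0.0919 to 3.12 ± 2.86 CPM (SD, n = 3), a log2 fold change of 4.53 ± 0.96 (SE, edgeR adjusted p = 0.0490). It and Cd79b passed the filter on low counts only through their 21-month libraries, so that a fall could not have been seen. The call of Cd22 is therefore a description and no support. The log2 fold change was 3.68 ± 0.97 for Cd79b (adjusted p = 0.0718), 2.83 ± 0.70 for Bank1 (0.0667) and 1.04 ± 0.83 for Cr2 (0.461), by edgeR. The call of Cd22 held in 6 of 17 alternatives, with a range of 2.55 to 5.83 in log2 and of 0.000766 to 0.381 in adjusted p. It ended with limma-voom (adjusted p = 0.108), when 21-month replicate 1 was left out (3.78, adjusted p = 0.0523) or 21-month replicate 2 (4.59, 0.0910), and with replicate 3 alone for 21 months (2.55, 0.381, by edgeR). It also ended without any 1 of the 3-month or 13-month libraries, with edgeR adjusted p between 0.0700 and 0.217.

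The direction of Cr2 at 21 against 3 months rested on 1 library. Its log2 fold change was -0.90 (edgeR adjusted p = 0.254) when 21-month replicate 1 was left out and -1.07 (0.601) when replicate 3 stood alone. In those same fits Cd79b stood at 3.11 (0.0967) and 2.48 (0.486), and Bank1 at 1.81 (0.0689) and 1.30 (0.466). Without 21-month replicate 3, the library in which the genes were lowest, edgeR called 2349 genes in all against 3 months and 1244 against 13 months. Ms4a1, Cd79a and Pax5 then passed the filter too, through the other 21-month libraries alone, and with at most 2 counts in each younger library they could hardly differ in another direction. The 6 and 7 B cell genes called in that fit are therefore no support.

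Between 13 and 21 months none of the 4 tested genes was called by edgeR, where 0.00622% of all tested genes, 1 gene, was called higher. All 4 had an unadjusted p under 0.05, as had 2525 of the 16067 tested genes. DESeq2 called 3 of the 4 and 428 genes in all, and limma-voom called 0 of the 4 and 3 genes in all. The log2 fold change was 3.18 ± 0.86 for Cd79b, 3.14 ± 0.78 for Cd22, 3.04 ± 0.95 for Cr2 and 2.35 ± 0.65 for Bank1, with edgeR adjusted p between 0.196 and 0.219. When 21-month replicate 1 was left out the values were 2.61, 2.39, 1.09 and 1.33 in the same order, with edgeR adjusted p between 0.188 and 0.351. When replicate 3 stood alone they were 1.99, 1.16, 0.93 and 0.84, each with an edgeR adjusted p of 0.999. Both comparisons with 21 months use the same 21-month libraries.

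**Figure D2:**
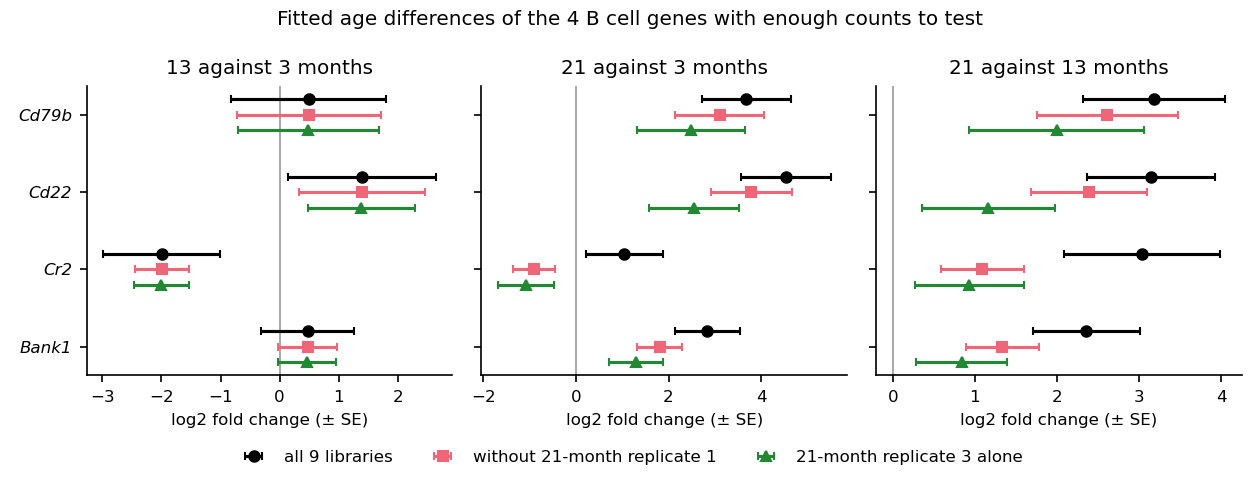
Log2 fold change ± SE from edgeR of the 4 B cell genes with enough counts, in each comparison of ages, fitted to all 9 libraries, without 21-month replicate 1 and with only replicate 3 kept at 21 months. At 21 against 3 months Cr2 changes sign, from 1.04 to -0.90 and -1.07, while Cd22, Cd79b and Bank1 stay above 0.

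Whole groups of libraries can also be compared by order. In CPM, 7 of the 9 genes had every 21-month library above every 3-month library, all but Cr2 and Pax5, where 30.7% of the genes with a count did so. Against 13 months it was 9 of 9, where 19.6% did so. Of the 4 tested B cell genes it was 3 and 4, where 48.6% and 29.0% of all tested genes did so. The shares over all genes depend on the scale. With TMM-scaled libraries they were 14.8% and 7.99% of tested genes, where 3 of the 4 and 4 of the 4 tested B cell genes did so. The 9 genes were listed with earlier results of these data known. The 5 too sparse to test had at most 2 counts in each younger library. Cd79b and Cd22 passed the filter on low counts only through the 21-month libraries. Such genes could hardly lie below, so that these counts are a description and no support.

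The 5 genes too sparse for the fit were compared by exact permutation tests of their CPM over libraries, in which 3 against 3 cannot go below p = 0.1. At 21 against 3 months the exact two-sided p was 0.1 for Ms4a1, Cd79a, Cxcr5 and Fcmr and 0.2 for Pax5, among 15 such tests over the 3 comparisons. At 21 against 13 months it was 0.1 for all 5, and at 13 against 3 months it lay between 0.4 and 1.0. The mean level at 21 months was 2.36 ± 2.91 CPM for Ms4a1, 1.35 ± 1.42 for Cd79a, 1.21 ± 1.46 for Pax5, 0.893 ± 1.11 for Fcmr and 0.663 ± 0.754 for Cxcr5 (SD, n = 3). The spread exceeded the mean in each.

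Counts pooled over the libraries of an age give a size with an interval for counting error only. Ms4a1 had 127 counts at 21 months and 0 at 3 months, which makes it at least 37.3-fold higher against a floor of 3 counts over the group. For Cd79a the pooled ratio of CPM, 21 against 3 months, was 21.8 (95% exact interval 7.16 to 108), from 74 and 3 counts. It was 28.7 (7.62 to 242) for Pax5, from 65 and 2 counts, 31.8 (5.35 to 1288) for Cxcr5, from 36 and 1, and 42.3 (7.24 to 1706) for Fcmr, from 48 and 1. Cr2 had the smallest pooled ratio at 3.07 (2.39 to 3.98), from 282 and 81 counts. These ratios weigh libraries by depth, and 21-month replicate 1 held 236 of the 282 counts of Cr2 and 97 of the 127 of Ms4a1.

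Within 21 months each of the 9 genes was highest in replicate 1 and lowest in replicate 3, by ratios that differed between genes. The CPM of replicate 1 over that of replicate 2 was 10.2 for Cr2 (95% exact interval 6.90 to 15.7). It was 4.99 for Fcmr (2.37 to 11.8), 4.36 for Ms4a1 (2.82 to 6.95), 4.25 for Pax5 (2.31 to 8.33), 3.95 for Cxcr5 (1.74 to 10.1) and 3.77 for Bank1 (2.77 to 5.21). It was lowest for Cd79a, at 2.89 (1.71 to 5.07), Cd22, at 2.34 (1.67 to 3.30), and Cd79b, at 2.19 (1.44 to 3.39). All 9 intervals lay above 1. The interval of Cr2 lay above those of Cd79a, Cd79b, Cd22 and Bank1 and overlapped those of Ms4a1, Fcmr, Pax5 and Cxcr5. Between replicates 2 and 3 the ratio was 9.74 for Ms4a1, 7.58 for Cd79a and for Pax5 and 1.68 (0.899 to 3.23) for Cr2. There 7 of 9 intervals lay above 1, that of Fcmr from 1.008. All these ratios use library totals. TMM factors fell from 1.637 to 1.338 and 0.9789 in 21-month replicates 1, 2 and 3. On that scale each ratio would be smaller. How many of all genes had such intervals was not counted.

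Between replicates 1 and 2 of these libraries, the ratios of Ighm, T cell markers and macrophage markers lay below those of the 9 genes. Between replicates 2 and 3 this order did not hold for Cr2, at 1.68 (0.899 to 3.23). Ighm had 2.44 there and the macrophage sum 2.28, while the T cell sum had 1.67. The lowest of the B cell genes other than Cr2 was Bank1, at 2.48 (1.51 to 4.19). Ighm, the IgM heavy chain segment made by B and plasma cells, stood at 647, 379 and 155 CPM, a ratio of 1.71 (1.66 to 1.76) between replicates 1 and 2. Of the 9 B cell genes 5 had an interval wholly above that one, and how many of all genes did so was not counted. Ighd, the IgD segment found on naive B cells, had 65, 6 and 5 counts and a ratio of 13.2 (5.73 to 37.2). That ratio was above those of the 9 genes, but its interval overlapped that of Cr2 (6.90 to 15.7). T cell markers summed to 49.7, 64.5 and 38.5 CPM, with a ratio of 0.771 (0.707 to 0.841), and markers of macrophages and dendritic cells to 283, 418 and 183 CPM, with a ratio of 0.677 (0.653 to 0.701). These lists were thus higher in replicate 2 than in replicate 1, in the direction opposite to the 9 B cell genes. Other B cell lists, described below, had small ratios between replicates 1 and 2. The sum of 21 other B cell genes had 1.33 (1.26 to 1.40) and that of B cell receptor signalling 1.12 (1.09 to 1.15), both below Ighm. Reads here carry no molecular identifiers and are not independent molecules, and every interval and floor covers counting error alone.

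**Figure D3:**
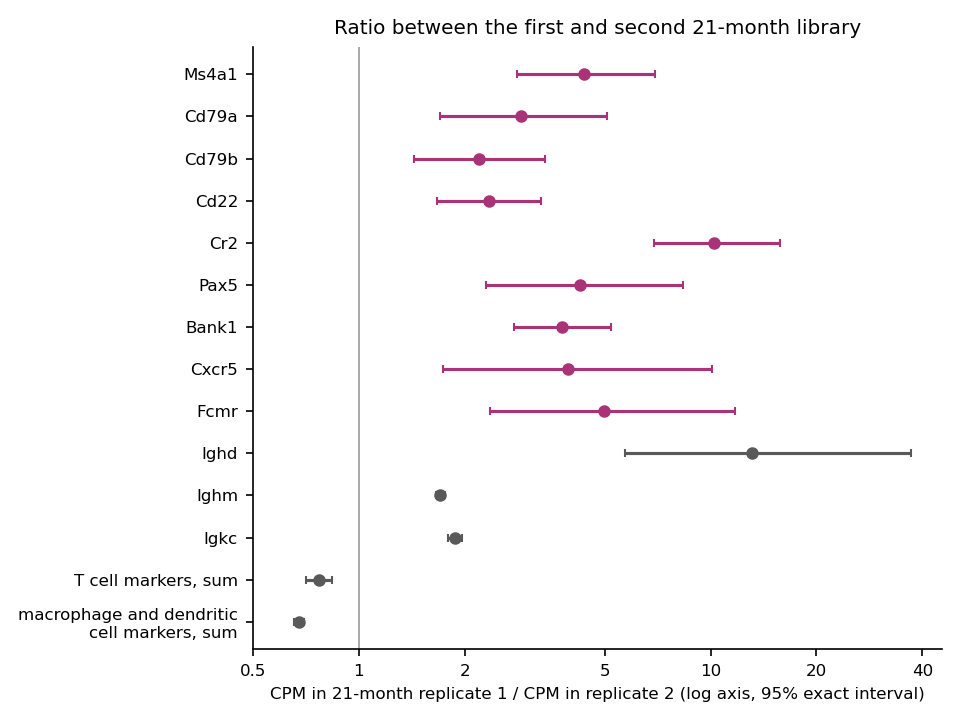
CPM in 21-month replicate 1 divided by CPM in replicate 2, on a log axis with 95% exact intervals for counting error, for the 9 B cell genes and for other immune genes and lists. The B cell genes lie between 2.19 and 10.2, Ighm at 1.71, and the T cell and macrophage sums below 1.

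Of 21 other B cell genes 12 could be tested, and 3 rose between 3 and 21 months with 0 lower. Pou2f2, encoding the octamer-binding factor OCT2, rose by 2.69 ± 0.47 on the log2 scale (edgeR adjusted p = 0.0349), and its counts were 26, 28 and 34 in 21-month replicates 1, 2 and 3. Ikzf3, the zinc finger factor Aiolos, rose by 2.37 ± 0.49 (0.0481) with 201, 114 and 52 counts, and Cd37, a tetraspanin, by 1.87 ± 0.35 (0.0426) with 78, 70 and 32. Pou2af1, the coactivator of the octamer factors, had 1.83 ± 0.41 (0.0550). The median of the 12 was 1.66, or 0.64 with 21-month replicate 3 alone, where 0 were called, and limma-voom called 0. The median of all tested genes was 0.007. Pou2f2 stood at 1.52, 1.35 and 1.51 CPM in the 21-month libraries, with little spread beside the 9 genes. It and H2-Ob, of the 12, passed the filter on low counts only with the 21-month libraries, so that a fall of Pou2f2 could hardly have been seen.

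Of those that could not be tested, Spib, an ETS factor of B cells, had at most 1 count in each younger library and 47, 24 and 2 at 21 months. Fcer2a, the IgE receptor CD23 of follicular B cells, had no count at 3 or 13 months and 22, 3 and 0 at 21 months. The order of both between the 21-month libraries was that of the 9 genes, and both were named after their values were seen. Other genes of this list had other orders. In 21-month replicates 1, 2 and 3, Ebf1 stood at 13.7, 33.6 and 4.44 CPM and Blnk at 56.4, 31.1 and 35.25 CPM.

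Of 22 genes of B cell receptor signalling all 22 could be tested and 4 rose at 21 against 3 months, with 0 lower. They were Pik3cd, a phosphoinositide kinase (1.14 ± 0.23 in log2, edgeR adjusted p = 0.0456), Cd300a, an inhibitory receptor (2.02 ± 0.41, 0.0461), Syk, the kinase that docks on CD79 chains (1.72 ± 0.36, 0.0485), and Rac2, a small GTPase (1.64 ± 0.35, 0.0497). Many genes of this list are also used by macrophages and other blood cells. The median was 0.90, or 0.50 with 21-month replicate 3 alone, where 0 were called, and limma-voom called 0.

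The gene of the CXCR5 ligand rose with little spread between the 21-month libraries. Cxcl13, the chemokine that draws B cells into follicles, had 5, 10 and 3 counts in the 3-month libraries, 5, 23 and 15 in the 13-month and 122, 107 and 104 in the 21-month libraries. In CPM the 21-month libraries were 7.12, 5.14 and 4.62, close to each other and above all younger libraries. Cxcl13 rose by 3.45 ± 0.49 on the log2 scale at 21 against 3 months (edgeR adjusted p = 0.0202) and kept its call with 21-month replicate 3 alone (3.56, 0.0391). It was the 1 called gene of 9 tested of the 18 homing and survival factors, whose median was 1.14, or 0.56 with replicate 3 alone. Tnfsf13b, the survival factor BAFF, had 1.14 ± 0.33 (0.0846), Tnfrsf13b, its receptor TACI, 1.34 ± 0.33 (0.0681) and Ltb, lymphotoxin beta, 1.77 ± 0.65 (0.143). Ccl19, a chemokine of T cell zones, had no count in any of the 9 libraries, and Ccl21a had at most 1 count in each.

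Immunoglobulin genes rose, also when the library in which the 9 genes were lowest stood alone for 21 months. Of 12 immunoglobulin constant segments 8 could be tested and 6 rose at 21 against 3 months, 6 also with 21-month replicate 3 alone, by edgeR, and 3 by limma-voom. Of the 6, 3 passed the filter on low counts only with the 21-month libraries. Summed, the segments stood at 3.07 to 10.04 CPM at 3 months, 18.6 to 55.8 at 13 months and 1033, 556 and 290 in 21-month replicates 1, 2 and 3. Of 10 plasma cell markers 8 could be tested and 2 rose, Jchain, which joins IgM and IgA units (5.94 ± 0.69, edgeR adjusted p = 0.0153), and Irf4, a factor of plasma cell differentiation (2.44 ± 0.45, 0.0400). The plasma median was 0.50. Jchain kept its call with replicate 3 alone (5.69, 0.0150), and Irf4 did not (1.48, 0.294). The CPM of Ighm in replicate 1 was 4.16 times that in replicate 3, and 7 of the 9 B cell genes had a ratio whose interval lay wholly above that of Ighm. How many of all genes had such an interval was not counted, so that this count is a description only. Slc38a10, which is on none of the lists, stood at 262 CPM in replicate 1 and 16.0 in replicate 3.

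Germinal centre markers were not called. Of 9 such genes 5 could be tested and 0 passed edgeR's test, with 1 at an unadjusted p under 0.05 and 0 by DESeq2 and limma-voom. Their median was 0.56. Of 9 follicular dendritic cell markers, 2 of them shared with the homing list, 7 could be tested and 3 rose: Cxcl13, Vcam1, an adhesion molecule (1.55 ± 0.26, edgeR adjusted p = 0.0302), and Fcgr2b, an inhibitory Fc receptor (1.54 ± 0.26, 0.0308). Their median was 0.84. With 21-month replicate 3 alone the log2 fold change was 3.56 for Cxcl13, 1.26 for Vcam1 and 1.05 for Fcgr2b. Madcam1 of that list had no count in any 21-month library, and Fcer2a had none in 21-month replicate 3.

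Some markers of other blood cells rose as well. Of 16 T cell markers 15 could be tested and 3 rose at 21 against 3 months, Cd2 (2.99 ± 0.57, edgeR adjusted p = 0.0426), Cd3g (1.72 ± 0.34, 0.0426) and Cd3e (2.37 ± 0.48, 0.0456), with a median of 2.02. Of the 15, 10 passed the filter only with the 21-month libraries, Cd2 and Cd3e among them. The T cell sum was 14.1 to 19.4 CPM at 3 months and 20.4 to 41.6 at 13 months. Of 13 markers of macrophages and dendritic cells 5 rose, with a median of 1.04 and a sum of 80.1 to 89.2 CPM at 3 months. With replicate 3 alone 0 of the T cell markers and 2 of the macrophage markers were called. Of the markers of tissue outside the gland, 0 of 6 tested adipocyte markers were called, nor was Spink1, the 1 tested prostate marker, which every library held, with 1 of 3 nerve markers higher. At an unadjusted p under 0.05, 6 adipocyte markers were higher, Spink1 lower and 2 secretory genes lower. Medians were 6.70 for adipocytes and 1.70 for nerve, and 0 of 10 secretory genes were called, with a median of -1.09. These 4 lists were called in 2 adipocyte, 0 prostate, 1 nerve and 2 secretory genes by DESeq2, and in 0 by limma-voom.

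In the other 2 comparisons the 118 tested genes of these 13 lists gave no call by edgeR. At 13 against 3 months 22 were higher and 0 lower at an unadjusted p under 0.05, with 7 called higher by DESeq2 and 0 by limma-voom. At 21 against 13 months 59 were higher and 4 lower at an unadjusted p under 0.05, with 28 called higher by DESeq2 and 2 by limma-voom.

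**Figure D4:**
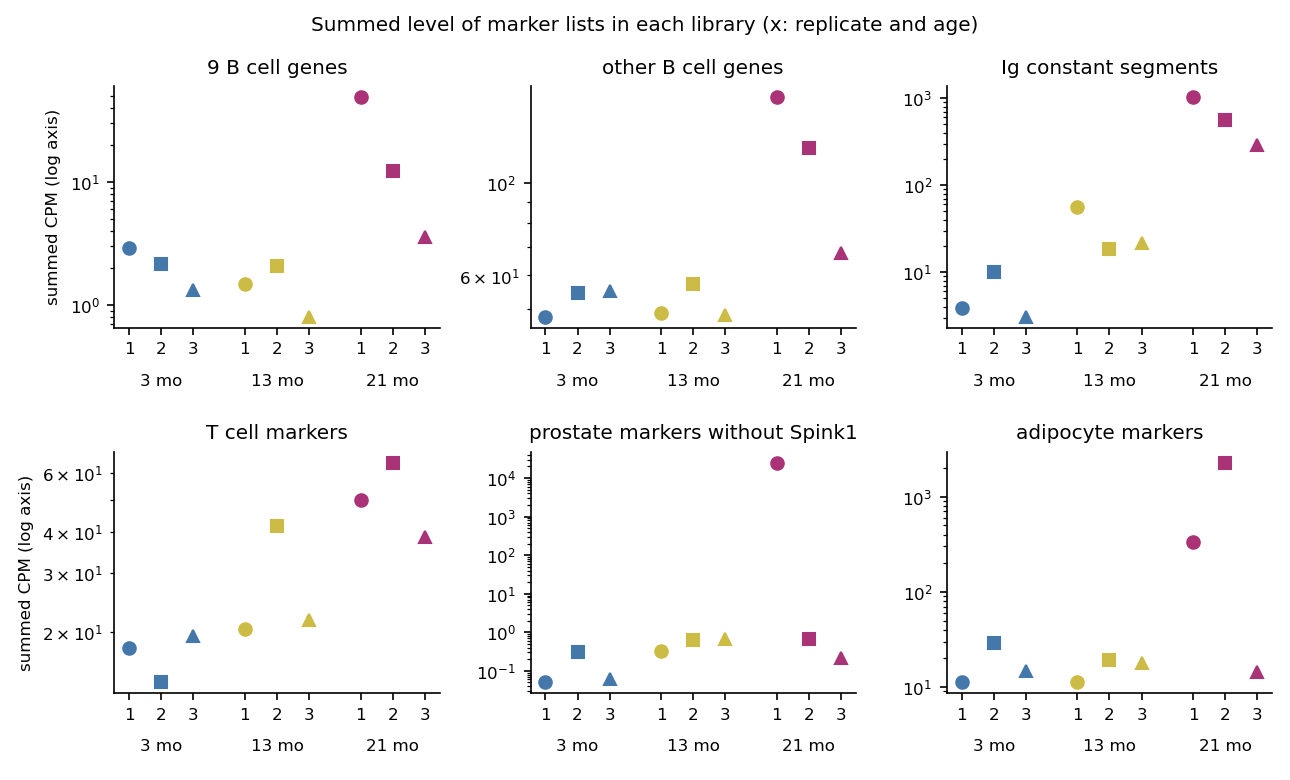
Summed CPM of 6 gene lists in each library, on log axes that differ between panels, with replicate and age on the x axis. The 9 B cell genes and the immunoglobulin segments fall from 21-month replicate 1 to replicate 3, while T cell and adipocyte markers are highest in replicate 2 and the prostate markers are high in replicate 1.

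Other genes were ranked by how closely their pattern over the 9 libraries followed the summed level of the B cell genes. Likeness was the root mean square difference of log2(CPM + 0.5) after centring, over 13257 candidates with a median of 1.30. The closest were Slc38a10 at 0.415, Mycl at 0.466, Basp1 at 0.483 and Piezo2 at 0.491, then Ly6e and Nucb1 at 0.505, Krt23 at 0.519 and Gpx3 at 0.527. Slc38a10 reached 262, 36.4 and 16.0 CPM in the 21-month libraries and lay at 7.08 to 13.2 in the younger libraries. Each of the 8 was highest in replicate 1, the library with prostate transcripts, then in replicate 2. This is a description over libraries of which 1 lies far from the rest.

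Some counts could include reads of overlapping genes, since the strand setting is not given. The antisense gene 4930526L06Rik, which overlaps Ms4a1 without sharing an exon, had 33 counts in 21-month replicate 1 and 0 in the other 8 libraries. Bcl9l shares 110 bases of exon with Cxcr5 on the opposite strand and had 144 to 455 counts, with no reads of Cxcr5 above 1 in any younger library. The overlapping genes of Cd22 and Pax5 had at most 1 count in any library, and that of Bank1, Gm31243, at most 4.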

How the data were processed

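Gene counts of total RNA, described by the labels as lncRNA-seq, were analysed for 9 seminal vesicle libraries, 3 at each age. The deposited values are raw counts for each Ensembl identifier, which the authors made with HISAT2 and featureCounts on GRCm38 (mm10), per the submitters' processing notes. Versions, annotation, strand setting and handling of multiply mapped reads are not given in the sources used here. Columns were assigned to ages by name. Symbols and coordinates came from GENCODE M21, which matched 53274 of 53379 identifiers, and the other 105 held 0.00839% of counts.

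Genes were kept by filterByExpr (minimum count 10, minimum total 15), which left 16067, and fitted to all 9 libraries with edgeR 4.0.16 (TMM, quasi-likelihood F test) in R 4.3.3. Benjamini-Hochberg adjustment covered every tested gene, and the threshold was 0.05. SE is the log2 fold change over the square root of F. CPM uses library totals. When only totals set the scale, the median log2 fold change over all tested genes was 0.0719, 0.616 and 0.553 at 13 against 3, 21 against 3 and 21 against 13 months, against 0.0078, 0.0074 and 0.0047 with TMM, to which changes refer. Exact permutation tests and 95% exact intervals used scipy 1.17.1. Replicates differed by more than sampling noise (lowest chi-square per degree of freedom 3.44). The biological coefficient of variation was 22.4%. Steps were tested on simulated data.

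The 9 genes and the 13 other lists were chosen with earlier results of these data known. Genes named from the lists came from the 4 tested genes of smallest adjusted p at 21 against 3 months in each list. Not all 4 were named, and in several lists only called genes or none were. The 8 genes most like the summed level were named too. Spib, Fcer2a, H2-Ob, Ccl19, Ccl21a, Madcam1, Ighd, Ebf1, Blnk, Msmb, Sbp and Hoxb13 were named outside that rule after their values were seen. Tgm4 and Pbsn, also outside it, were named for the library that stood apart. Alternatives were DESeq2 1.42.0, limma-voom 3.58.1, 3 other scalings, 2 other filters, the 6 libraries of a comparison, a replicate block, 21-month replicate 3 alone (its spread then taken from the other ages) and leaving out each library. Splicing and isoforms were not analysed, and some genes of the lists are not reported here.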

Additional observations from a re-analysis of the deposited data

How the results depend on the processing

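At 13 against 3 months 0 B cell genes were called in every alternative run, and the filter of at least 10 counts in all 9 libraries keeps 0 of the 9, so it gives no value for them. At 21 against 3 months, with 1 of 4 called, DESeq2 called 3 of 4 and limma-voom 0 of 4. Library totals alone called 3 of 4, beside 5695 of 16067 genes in all. No filter called 4 of 9, beside 728 of 29770 genes. Only the 6 libraries compared gave 0 of 3, and leaving out 1 library 0 to 6 of the 4 or 7 then tested. At 21 against 13 months, with 0 called, DESeq2 called 3 of 4. Library totals alone called 4 of 4, beside 1240 of 16067 genes, and leaving out 1 library 0 to 7 of the 4 or 7 then tested. Over all genes, 73 were called at 13 against 3 months, 211 by DESeq2, 33 with at least 10 counts in all 9 libraries, 235 with only the 6 libraries, 229 with 21-month replicate 3 alone and 1 to 150 leaving out 1 library. At 21 against 3 months, 325 were called, 1503 by DESeq2, 154 by limma-voom, 5695 with library totals alone, 69 with at least 10 counts, 728 with no filter, 112 with the 6 libraries, 57 with 21-month replicate 3 alone and 0 to 2349 leaving out 1 library. At 21 against 13 months, 1 was called, 428 by DESeq2, 3 by limma-voom, 1240 with library totals alone, 5 with no filter, 0 with the 6 libraries and 0 to 1244 leaving out 1 library. The cause was not tested. The labels do not say whether equal replicate numbers pair the samples. Correlations of same-numbered libraries lay between -0.170 and 0.208. They were not compared with those of differently numbered libraries, so that pairing was not tested. With a replicate block 45, 442 and 3 genes and 0, 1 and 0 B cell genes were called in the 3 comparisons. At 21 against 3 months the block ended the call of Cd22 (adjusted p = 0.0511 by edgeR) and made Bank1 pass (2.62, 0.0461).

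Signs changed for Cd79b at 13 against 3 months (-0.24 with limma-voom, -1.84 to 1.14 leaving out 1 library) and Cr2 at 21 against 3 months (-1.07 with 21-month replicate 3 alone, -0.90 to 1.51 leaving out 1 library). The CPM difference at 13 against 3 months ran from -0.0531 to 0.00201 for Cd79a, from -0.0335 to 0.0161 for Pax5 and from -0.0201 to 0.0161 for Cxcr5 and Fcmr. The other signs held. Depth limits the 5 sparse genes, at or under 3 counts in 21-month replicate 3.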
